A study of Mus musculus with 15 samples.

Results

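The genes described here carry out necroptosis and death receptor signalling in mouse retinal pigment epithelium (RPE) with and without *Prom1*. They are the receptors *Tnfrsf1a*, *Fas* and *Tnfrsf10b*, the adaptor and protease module *Fadd*, *Casp8* and *Cflar*, the kinases *Ripk1* and *Ripk3*, the necroptosis effector *Mlkl*, and the stress kinase *Map3k5*, also called ASK1. They were taken by name, as the rows of these gene symbols in the raw count tables, with earlier results of these data known. The study had already reported higher *Ripk3* and *Map3k5* in cultured RPE cells without *Prom1*. All 10 had a row among the 20910 genes of the table of cultured cells and among the 25038 genes of the table of RPE/choroid tissue, and all 10 passed the filter on low counts in both.

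Death receptors of the TNF receptor family recruit FADD and caspase-8 when their ligands bind, and active caspase-8 starts apoptosis. cFLIP, the product of *Cflar*, pairs with caspase-8 and restrains it, and caspase-8 in turn cleaves RIPK1 and RIPK3. Where caspase-8 is blocked, RIPK1 and RIPK3 join through their RHIM domains and RIPK3 phosphorylates MLKL, which then permeabilises the plasma membrane. ASK1 is held inactive by reduced thioredoxin and signals to JNK and p38 when cells are oxidised or when TNF receptors engage it. Necroptosis of the RPE has been studied in models of oxidative retinal injury. These proteins are regulated mainly by binding, cleavage and phosphorylation, which RNA levels do not measure.

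The libraries were of polyA RNA from RPE cells of the mouse kept in culture (mRPE) and from dissected RPE/choroid. The mRPE cells came from pooled C57/BL6J mice, were immortalised and stably expressed Cas9, and the *Prom1*-KO lines were made by transfecting a guide RNA. There were 4 libraries of WT mRPE, 3 of the line labelled mRPE Prom1KO 22 (KO22) and 2 of the line labelled mRPE Prom1KO 26 (KO26). The study set both KO26 libraries aside as outliers before its own comparison, and every KO26 value given here rests on them. The RPE/choroid came from 3 WT mice and from 3 labelled *Prom1*-KO, in which *Prom1*fl/fl was combined with RPE65-Cre and recombination was started by tamoxifen gavage. The labels call the tissue controls WT and give no floxed allele or gavage for them. KO22 and KO26 are single edited lines, and what is particular to a line cannot be told apart from the loss of *Prom1* within it. Replicates of a line are libraries for which no separate editing is stated, so the p-values measure the spread between these libraries, which may be technical. The mRPE libraries carry 2 project numbers, which the study treats as sequencing batches. Project 8995 held 1 library each of WT, KO22 and KO26, and project 9262 held 3 WT, 2 KO22 and 1 KO26.

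The guide is shown because it is the one given for making the *Prom1*-KO lines. The study's methods describe the lines as carrying deletions at different sites of *Prom1*, and which line was cut where is not given in the sources used here. The guide matched the GRCm39 genome once, on the minus strand at chr5:44213310-44213329 in exon 5 of *Prom1*, and the next bases are the CGG motif that Cas9 needs. In the reference sequence of chr5:44213280-44213359, read on the minus strand, the capitals mark the guide.
Prom1 exon 5 target: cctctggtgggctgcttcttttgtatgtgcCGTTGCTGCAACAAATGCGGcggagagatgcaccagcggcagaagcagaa

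*Prom1* had no row in the mRPE table used here, so its level was not checked in the edited lines. In RPE/choroid its level in CPM, the library-size scaled count defined with the first comparison, was 48.7, 49.6 and 53.3 in WT and 49.9, 48.1 and 35.5 CPM in the libraries labelled *Prom1*-KO (log2 fold change -0.18, adjusted p = 0.824, edgeR), so bulk *Prom1* RNA did not separate the 2 tissue groups. Total counts were 8076188 to 27537863 in the mRPE libraries and 48154444 to 61766179 in the tissue libraries. Mitochondrial genes took 12.9% to 21.6% of the mRPE counts and 64.9% to 84.2% of the tissue counts, and the highest share was in replicate 3 of tissue labelled *Prom1*-KO. The mitochondrial ribosomal RNA genes *mt-Rnr1* and *mt-Rnr2* were among the 3 highest genes of every library, so these shares include ribosomal RNA. In mRPE the share was 17.6% to 21.6% in WT, 14.0% to 16.3% in KO22 and 12.9% to 17.4% in KO26, so every *Prom1*-KO library was below every WT library. Rows were found for 4 of 13 RPE markers among the mRPE genes, with *Rpe65* not one of them, and their summed CPM was 11.8 to 17.4 in WT, 17.3 to 39.9 in KO22 and 8.17 to 12.6 in KO26. The 9 listed fibroblast and stroma markers summed to between 13796 and 19465 CPM in WT mRPE, 5848 and 9039 in KO22, and 22054 and 22985 in KO26. The 7 endothelial markers with a row, of 10 listed, summed to between 217 and 271 CPM in WT mRPE, 82.2 and 97.7 in KO22, and 118 and 123 in KO26. By the rule given with the first comparison, the endothelial markers *Kdr* and *Tek* were called lower in KO22 and *Plvap* higher. Of the 9 fibroblast and stroma markers, 6 were called lower and 1 higher there. Of the 4 RPE markers 1 was called, and it was higher. Of all genes 25.2% were called in KO22. Mitochondrial shares and these markers moved with the line, and their part in the results that follow was not tested.

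In KO22, *Ripk3* and *Mlkl*, which act last in necroptosis, and *Map3k5* were upregulated against WT mRPE. Among the 10 genes, none of the receptors *Tnfrsf1a*, *Fas* and *Tnfrsf10b* and no member of the caspase-8 module was called. Receptors outside the 10 genes, some of which were called, are given further below. CPM was the count of a gene per 1000000 counts of the library, with library size scaled by the trimmed mean of M values (TMM). A gene was called when edgeR's quasi-likelihood test, with Benjamini-Hochberg adjustment and the project number as a term, gave an adjusted p under 0.05 with a log2 fold change beyond 1.2 in either direction. Of all 20455 genes tested, 25.2% were called, and 11.4% were called and higher. Among the 10 genes, 3 were called, all higher, so their share was near the background. With no limit on the fold change 53.0% of all genes passed, and 6 of the 10 did, 4 higher and 2 lower. The median log2 fold change was 0.34 over the 10 genes and -0.03 over all genes.

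**Figure D1:**
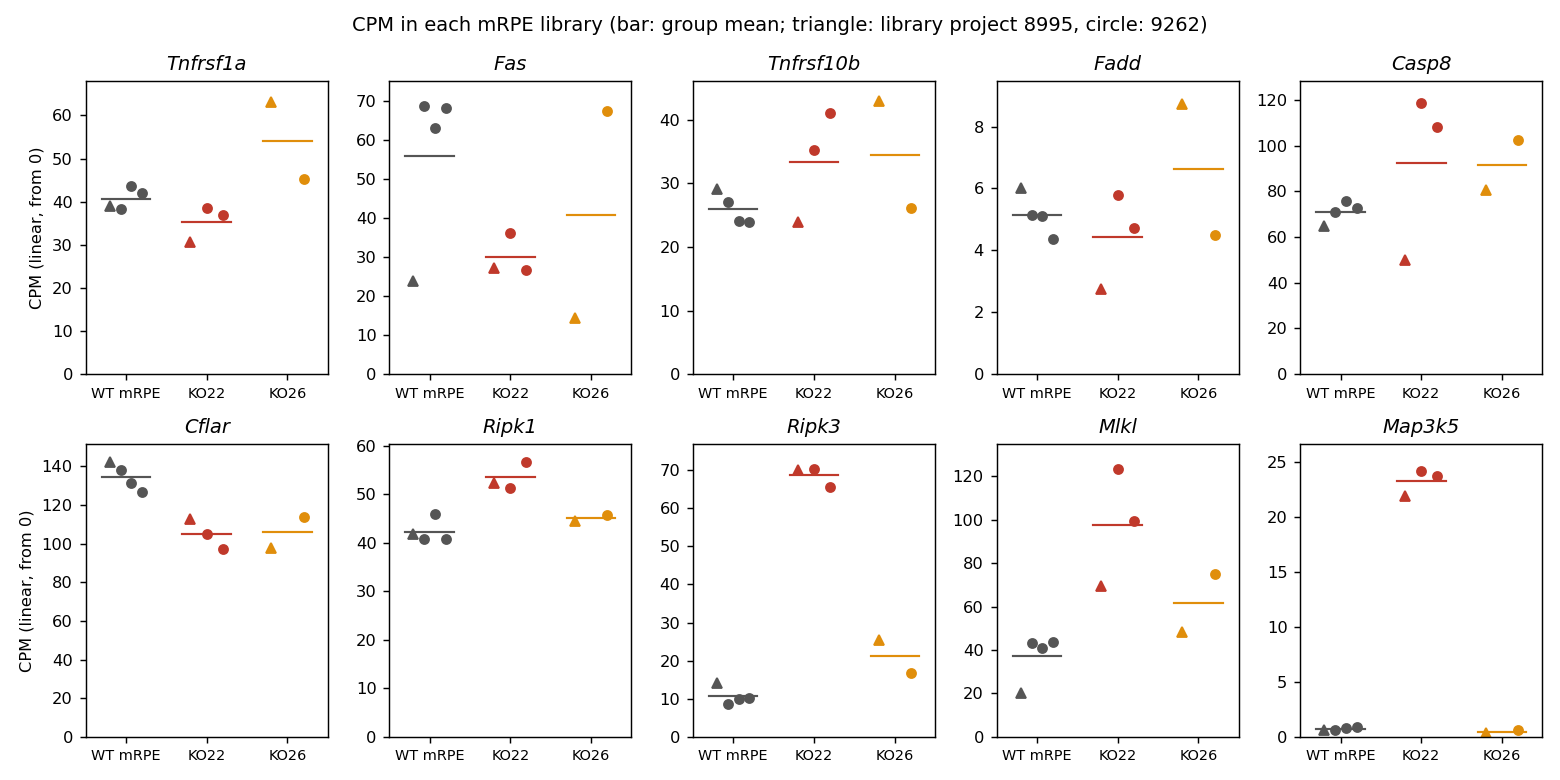
CPM of each of the 10 genes (linear axes from 0, 1 panel per gene) in the 4 WT mRPE, 3 KO22 and 2 KO26 libraries. Points are libraries, with triangles for project 8995 and circles for project 9262, and bars are group means. *Ripk3* and *Map3k5* of KO22 stand far above the other libraries, whereas *Fas* and *Mlkl* of WT separate by project.

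None of the receptors *Tnfrsf1a*, *Fas* and *Tnfrsf10b* was called in either line. *Fas*, the receptor for Fas ligand (chr19:34268001-34305173), had 23.7 CPM in WT replicate 1 and 68.8, 63.1 and 68.0 CPM in WT replicates 2, 3 and 4. It had 27.2, 36.2 and 26.6 CPM in KO22 and 14.3 and 67.3 CPM in KO26. The libraries of project 8995 were thus low in WT and in KO26, and the groups overlapped. *Fas* fell by 0.71 on the log2 scale in KO22 (SE 0.24, adjusted p = 0.0296), a change under the fold limit. The difference of KO22 from WT was 0.19 within project 8995 (1 library against 1) and -1.09 within project 9262, on log2 of CPM with 0.5 added. The adjusted p was above 0.05 in a fit over all 9 mRPE libraries (0.115) and when any of these libraries was left out: WT replicate 2 (0.0695), 3 (0.0700) or 4 (0.0757), or KO22 replicate 2 (0.106) or 3 (0.132). Without WT replicate 1 or KO22 replicate 1, which left KO22 and WT compared within project 9262, *Fas* gave adjusted p values down to 1.98e-08 and log2 fold changes down to -1.09. In KO26 the log2 fold change of *Fas* was -0.35 (SE 0.34, adjusted p = 0.603).

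*Tnfrsf1a*, the main receptor for soluble TNF (chr6:125325566-125339632), had 38.3 to 43.6 CPM in WT, 30.7, 38.6 and 36.9 CPM in KO22 and 63.1 and 45.2 CPM in KO26. Both KO26 libraries lay above WT, and the KO22 libraries overlapped WT. The log2 fold change was -0.19 in KO22 (adjusted p = 0.167) and 0.42 in KO26 (adjusted p = 0.209). *Tnfrsf10b*, the mouse TRAIL receptor (chr14:70004916-70021860), ranged from 23.9 to 29.1 CPM in WT, from 24.0 to 41.0 in KO22 and from 26.1 to 43.0 in KO26. Its log2 fold change was 0.35 in KO22 (adjusted p = 0.118) and 0.39 in KO26 (adjusted p = 0.408). Without WT replicate 1 or KO22 replicate 1, which left KO22 and WT compared within project 9262, its adjusted p in KO22 was 6.35e-05 or 2.89e-05.

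In the caspase-8 module, *Cflar* was the member that separated *Prom1*-KO from WT libraries. It lies beside *Casp8* on chromosome 1 (*Cflar* at chr1:58750321-58798047, *Casp8* at chr1:58834375-58886665). *Cflar* had 142, 138, 131 and 127 CPM in WT, 113, 105 and 97.3 CPM in KO22, and 97.6 and 114 CPM in KO26. Every *Prom1*-KO library was below every WT library. It fell by 0.37 on the log2 scale in KO22 (SE 0.10, adjusted p = 0.0107). The difference was -0.33 within project 8995 and -0.38 within project 9262. KO26 had a log2 fold change of -0.36 (SE 0.13, adjusted p = 0.172), and the adjusted p was 0.0400 without KO22 replicate 1, which shares the estimate of spread.

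*Casp8*, the initiator caspase, had 65.0, 71.2, 75.8 and 72.8 CPM in WT, 50.0, 119 and 108 CPM in KO22, and 80.7 and 103 CPM in KO26. KO22 replicate 1 was the lowest of the 9 libraries and the other KO22 libraries were the highest. The log2 fold change was 0.34 in KO22 (SE 0.18, adjusted p = 0.127), and -0.37 within project 8995 against 0.63 within project 9262. Without WT replicate 1 the adjusted p was 2.48e-06 and without KO22 replicate 1 it was 1.25e-06. In KO26 the log2 fold change was 0.49 (SE 0.20, adjusted p = 0.214), with an adjusted p of 0.00960 without KO22 replicate 1. *Fadd*, the adaptor that joins receptor and caspase (chr7:144131055-144136211), was scarce, with 4.38 to 6.00 CPM in WT, 2.77 to 5.79 in KO22 and 4.51 to 8.73 in KO26. Its log2 fold change was -0.22 in KO22 (adjusted p = 0.501) and 0.35 in KO26 (adjusted p = 0.610).

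*Ripk3*, the kinase that defines necroptosis, rose in both lines. WT mRPE had 14.0, 8.50, 9.81 and 10.3 CPM, from 353, 124, 100 and 143 counts. KO22 had 70.0, 70.2 and 65.7 CPM, and KO26 had 25.5 and 16.9 CPM. The 3 groups did not overlap, and KO26 lay between WT and KO22. *Ripk3* rose in KO22 with a log2 fold change of 2.68 (SE 0.14, adjusted p = 1.05e-06), a 6.44-fold ratio of the mean CPM. The rise was 2.28 within project 8995 and 2.77 within project 9262. It rose in KO26 too, with a log2 fold change of 0.89 (SE 0.17, adjusted p = 0.0216), and by 0.84 and 0.80 within the 2 projects. In KO22 it remained called under every alternative tried, with log2 fold changes of 2.50 to 2.85. In KO26 the adjusted p was above 0.05 without the project term (0.0640), without KO26 replicate 1 (0.184), and without WT replicate 2 (0.0752), 3 (0.0741) or 4 (0.0687).

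*Ripk3* is a compact gene on the minus strand (chr14:56022452-56026324). The 250 bases before the start of its canonical transcript are shown because *Ripk3* rose in both lines, as *Mlkl* also did. Capitals mark the single match found there to 1 of the 7 motifs searched on both strands, an E box with the letters CACGTG. The match lay 51 to 46 bases before the start, and 6.26% of 21757 protein-coding promoters of the same length held one. The other motifs were the AP-1 site TGACTCA, the interferon response element GAAANNGAA, the STAT site TTCNNNGAA, the GC box with GGGCGG, the TATA box with the letters TATAAA, and the kappaB site. Not finding them says only that these letters are not in this window. The same window of *Mlkl*, not shown here, held 1 match, to the interferon response element, as did 7.56% of the promoters. Of the *Ripk3* bases, 172 lay over exons of Gm56758, annotated on the opposite strand. The *Ripk3* sequence is chr14:56026325-56026574 of GRCm39, minus strand.
Ripk3 promoter: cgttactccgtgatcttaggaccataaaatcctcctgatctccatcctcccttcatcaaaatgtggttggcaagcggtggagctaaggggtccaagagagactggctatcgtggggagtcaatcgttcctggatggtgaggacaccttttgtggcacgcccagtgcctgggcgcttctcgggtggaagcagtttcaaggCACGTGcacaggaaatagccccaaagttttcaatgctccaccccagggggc

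*Ripk1*, the kinase upstream of *Ripk3* and a scaffold of the TNF receptor complex (chr13:34186141-34221130), moved far less. It had 41.9, 40.7, 46.0 and 40.8 CPM in WT, 52.4, 51.4 and 56.8 CPM in KO22 and 44.6 and 45.8 CPM in KO26. All KO22 libraries were above all WT libraries, and KO26 overlapped WT. *Ripk1* rose in KO22 with a log2 fold change of 0.34 (SE 0.11, adjusted p = 0.0222), under the fold limit. The adjusted p was above 0.05 without WT replicate 2 (0.0766) or 4 (0.0696), without KO22 replicate 2 (0.0687) or 3 (0.168), and under upper quartile scaling (0.220). In KO26 the log2 fold change was 0.10 (SE 0.13, adjusted p = 0.698). Exons of *Serpinb6a* on the opposite strand overlap *Ripk1*, and the strand setting of the counting is not given in the sources used here.

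*Mlkl*, the substrate of RIPK3 that ruptures the membrane (chr8:112036296-112065168), had 20.2 CPM in WT replicate 1 and 43.2, 41.1 and 43.9 CPM in WT replicates 2, 3 and 4. KO22 had 69.3, 123 and 99.5 CPM and KO26 had 48.5 and 75.2 CPM. Each *Prom1*-KO library exceeded each WT library, and KO22 overlapped KO26. *Mlkl* rose in KO22 with a log2 fold change of 1.50 (SE 0.13, adjusted p = 1.49e-05), with 1.76 within project 8995 and 1.36 within project 9262, and it remained called under every alternative tried. In KO26 it rose with a log2 fold change of 0.97 (SE 0.15, adjusted p = 0.0110), with 1.25 and 0.81 within the projects. That adjusted p was 0.291 without the project term and 0.0749 without KO26 replicate 1.

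*Map3k5* had the largest difference of the 10 genes in KO22. WT mRPE had 0.636, 0.617, 0.785 and 0.933 CPM, which were 16, 9, 8 and 13 counts. KO22 had 21.9, 24.2 and 23.7 CPM, which were 253, 501 and 306 counts, and KO26 had 0.371 and 0.578 CPM, which were 8 and 5 counts. KO22 stood far above every other library, and both KO26 libraries were below every WT library. The log2 fold change was 4.98 in KO22 (SE 0.19, adjusted p = 3.26e-07), the 25th smallest p of 20455 genes, and the mean CPM was 31.3 times that of WT. The difference was 4.30 and 4.27 within the projects, where the added 0.5 CPM lowers it. In KO26 the log2 fold change was -0.64 (SE 0.35, adjusted p = 0.357).

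*Map3k5* is on the plus strand at chr10:19809326-20018665. No upstream window is shown for it, because the start annotated by RefSeq lies 946 bases downstream of the GENCODE start, inside the first exon. Exons of Gm66167 on the opposite strand overlap *Map3k5*.

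In KO26 against WT none of the 10 genes was called at both limits, by edgeR or by DESeq2, where 1.92% of 20737 genes were called. An unadjusted p under 0.05 was found for 5 of the 10 genes and for 20.1% of all genes. The median log2 fold change was 0.37 over the 10 genes and 0.03 over all genes. *Ripk3* and *Mlkl* passed the adjusted p alone, both higher, where 3.50% of all genes passed and 2.36% passed and were higher. Both lines were set against the same WT libraries, so they were also compared with each other directly. The comparison of KO22 with KO26 called *Map3k5* (5.63, SE 0.31, adjusted p = 1.28e-06) and *Ripk3* (1.79, SE 0.19, adjusted p = 6.85e-05), both higher in KO22. Of all genes, 18.3% were called, 7.56% higher, and 34.4% passed the adjusted p alone. *Mlkl* was higher in KO22 by 0.52 (SE 0.16, adjusted p = 0.0300) and *Tnfrsf1a* was lower, at -0.62 (SE 0.18, adjusted p = 0.0223), both under the fold limit. For *Mlkl* the adjusted p was 0.198 without the project term, 0.118 in a fit of the 2 lines alone, 0.0544 without WT replicate 3, 0.0741 without KO22 replicate 2 and 0.212 without KO26 replicate 2. For *Tnfrsf1a* it was 0.118 in the fit of the lines alone and 0.215 without KO26 replicate 1. The other 6 genes gave log2 differences between -0.55 for *Fadd* (adjusted p = 0.292) and 0.24 for *Ripk1* (adjusted p = 0.201).

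**Figure D2:**
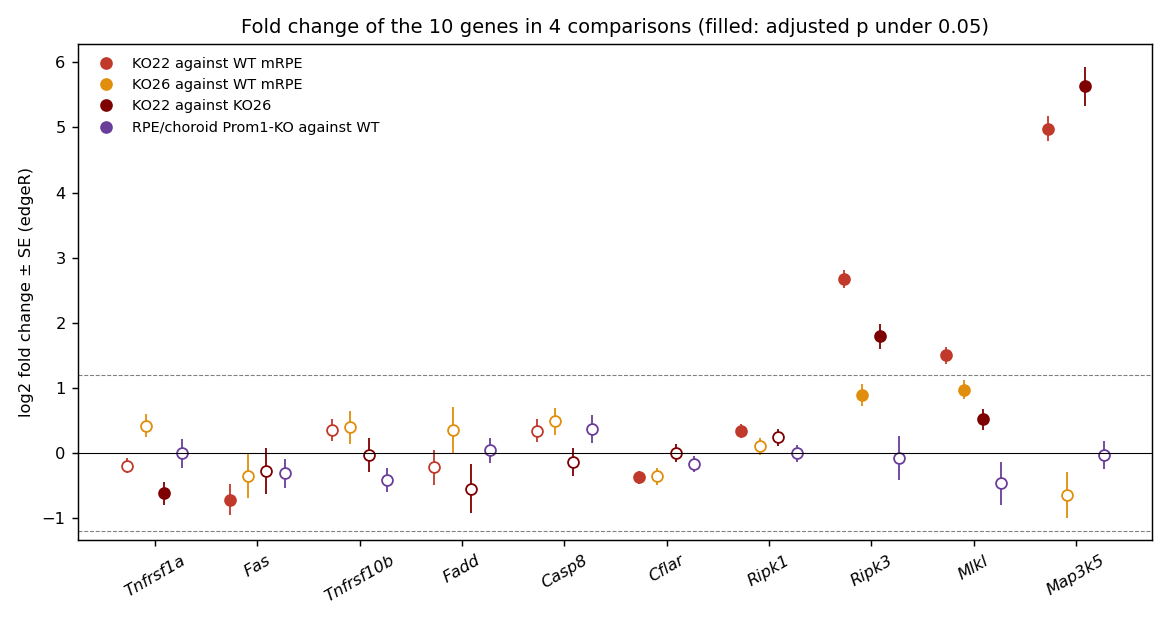
Log2 fold change of each gene with its SE (vertical axis) in the 4 comparisons, marked by colour, with filled points for an adjusted p under 0.05 and dashed lines at the limits of 1.2. *Map3k5* and *Ripk3* exceed the limit in KO22 against WT and in KO22 against KO26, and no RPE/choroid point is filled.

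Separation of the libraries was also counted, with no test. Between KO22 and WT, CPM did not overlap for *Ripk1*, *Ripk3*, *Mlkl* and *Map3k5* (higher) and *Cflar* (lower), 5 of the 10 genes against 50.1% of all genes. Between KO26 and WT it did not overlap for *Tnfrsf1a*, *Casp8*, *Ripk3* and *Mlkl* (higher) and *Cflar* and *Map3k5* (lower), 6 of the 10 genes against 24.7% of all genes, and only *Ripk3* and *Mlkl* of these passed the adjusted p. Between KO22 and KO26 it did not overlap for *Ripk1*, *Ripk3* and *Map3k5* (higher in KO22) and *Tnfrsf1a* (lower), 4 genes against 47.9%.

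Read per length of transcript, the order of the genes differed between lines. The scale here is CPM over the non-mitochondrial counts, per kilobase of the canonical transcript, a level and not a fold change. In WT mRPE the order ran from *Fas* at 48.9 ± 20.5 (SD, n = 4), *Casp8* at 33.3 ± 3.79, *Cflar* at 24.5 ± 1.19 and *Tnfrsf1a* at 23.9 ± 2.29 to *Mlkl* at 11.5 ± 3.98, *Tnfrsf10b* at 10.4 ± 0.706, *Ripk1* at 8.03 ± 0.604, *Ripk3* at 7.12 ± 1.14, *Fadd* and *Map3k5*. *Fas* overlapped *Casp8*, *Cflar* overlapped *Tnfrsf1a*, *Mlkl* overlapped *Tnfrsf10b*, and *Ripk1* overlapped *Ripk3*. In KO22 *Ripk3* had the highest mean, 42.0 ± 1.14 (SD, n = 3), ahead of *Casp8* at 39.2 ± 16.0 and *Mlkl* at 27.1 ± 7.74, and the first 3 could not be separated from their neighbours in the order. In KO26 *Casp8* at 38.9 ± 10.1 (SD, n = 2) and *Fas* at 33.0 ± 32.0 led, and *Ripk3* at 12.7 ± 2.52 came after *Mlkl*. *Map3k5* was lowest in WT (0.147) and KO26 (0.0854), and in KO22 (4.15) it lay above *Fadd* (1.32).

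**Figure D3:**
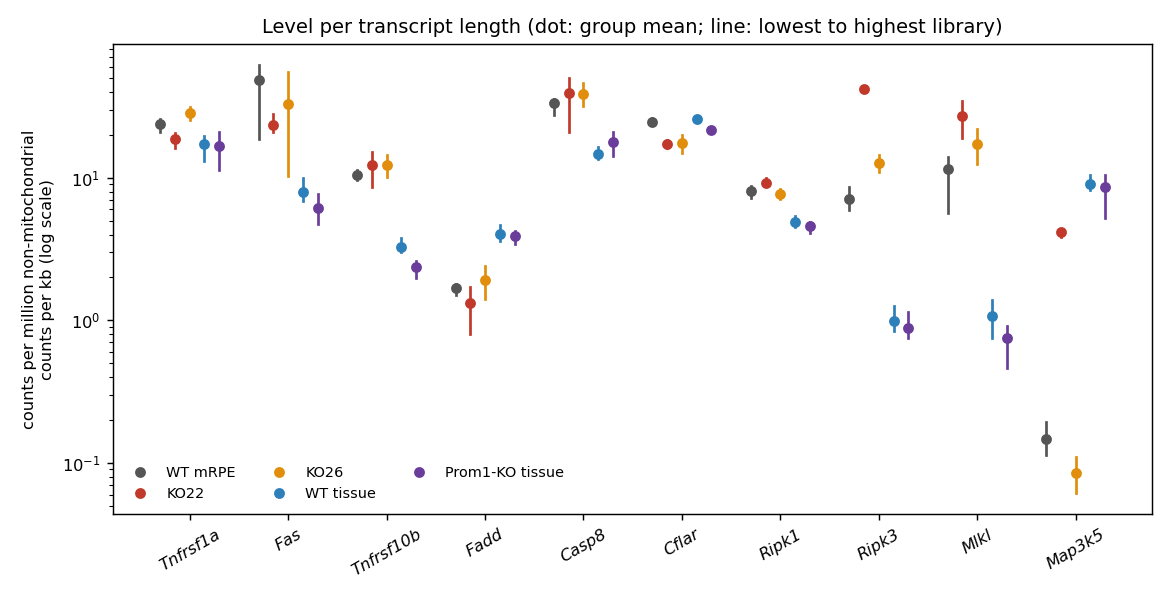
Level of each gene as CPM over non-mitochondrial counts per kilobase of transcript (log axis), in the 5 groups. Dots are group means and lines run from the lowest to the highest library. *Ripk3* goes from among the lower genes of WT mRPE to the highest mean of KO22, and *Map3k5* is near the bottom in WT mRPE and KO26 but not in RPE/choroid.

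Ratios of counts within a library need no scaling between libraries, and they are given as a description. *Ripk3* counts per *Ripk1* count were 0.335, 0.209, 0.213 and 0.252 in WT, 1.33, 1.37 and 1.16 in KO22, and 0.572 and 0.369 in KO26. KO22 libraries therefore held more *Ripk3* than *Ripk1* counts, and no other mRPE library did. *Cflar* counts per *Casp8* count were 2.19, 1.94, 1.73 and 1.74 in WT, 2.25, 0.882 and 0.898 in KO22, and 1.21 and 1.11 in KO26. KO22 replicate 1 was above WT for this ratio, and the other *Prom1*-KO libraries were below it.

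By distance over the 9 mRPE libraries on centred log2 CPM, the genes with the pattern nearest to *Ripk3* were *Timp1* (distance 0.588, Pearson r 0.993), *Gins3* (0.601, r 0.987) and *Cgas* (0.629, r 0.986). Nearest to *Map3k5* were *Nmu* (0.883), *Itgb7* (0.892) and *Adra2a* (0.904). The points share lines and projects, so these values only describe likeness.

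Whole chromosomes differed in KO22, which touches the reading of single genes. Median log2 fold changes by chromosome ran from -0.54 for the 967 other tested genes of chromosome 10 to 0.60 for the 1088 of chromosome 8 among the chromosomes that hold the 10 genes. *Mlkl* lies on chromosome 8, where its 1.50 exceeded 86.0% of the genes, and the 32 genes within 1 Mb of it had a median of 0.71. *Map3k5* lies on chromosome 10, and its 4.98 exceeded 99.8% of the genes there, with a median of -1.15 for the 10 genes within 1 Mb. *Ripk3* lies on chromosome 14, with a chromosome median of 0.20 and a median of 0.19 for the 53 genes within 1 Mb. In KO26 the medians of these chromosomes were 0.02 for chromosome 8, 0.04 for chromosome 10 and 0.06 for chromosome 14. Between KO22 and KO26 the median of chromosome 8 was 0.59, and *Mlkl*, at 0.52, exceeded 45.2% of the genes there. *Tnfrsf1a*, at -0.62, lies on chromosome 6, where that median was -0.52. The part of these regional shifts in the single-gene results was not tested.

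**Figure D4:**
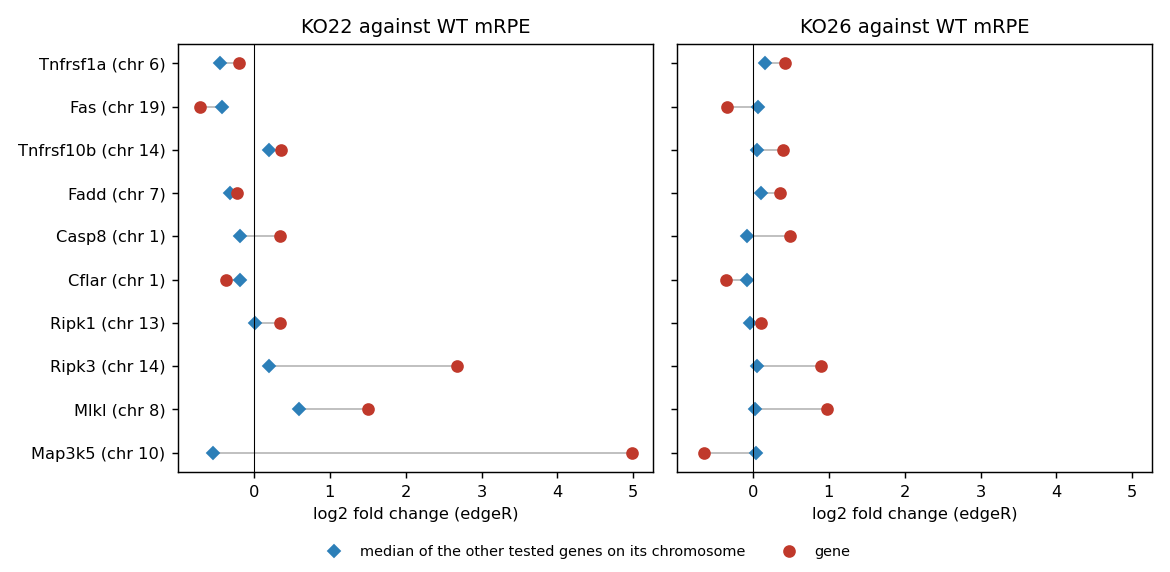
Log2 fold change of each of the 10 genes (red circles) and the median of the other tested genes on its chromosome (blue diamonds), for KO22 against WT and KO26 against WT mRPE on a shared horizontal axis. In KO22 the chromosome of *Mlkl* has a median of 0.60 and that of *Map3k5* a median of -0.54, and *Ripk3* and *Map3k5* stand far from the medians of their chromosomes.

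In RPE/choroid none of the 10 genes was called, by edgeR or by DESeq2, and none had an unadjusted p under 0.05. Of 24926 genes, 0.189% were called, 0.193% passed the adjusted p alone and 8.30% had an unadjusted p under 0.05. *Ripk3* was scarce, with 0.449, 0.660 and 0.423 CPM in WT and 0.388, 0.588 and 0.464 CPM in tissue labelled *Prom1*-KO, from 14 to 39 counts per library. Its log2 fold change was -0.08 (SE 0.34, adjusted p = 0.974), with the groups overlapping. *Mlkl* had 1.25, 1.59 and 0.831 CPM in WT and 0.971, 1.03 and 0.630 CPM in tissue labelled *Prom1*-KO (-0.46, SE 0.33, adjusted p = 0.780). Per kilobase of transcript *Map3k5* exceeded *Ripk1* and *Ripk3* in each tissue library. *Map3k5* had 18.6, 14.7 and 14.8 CPM in WT and 17.7, 18.3 and 11.04 CPM in tissue labelled *Prom1*-KO (-0.03, SE 0.22, adjusted p = 0.985). *Ripk1* had 8.002 to 9.96 CPM in WT and 8.76 to 9.02 in tissue labelled *Prom1*-KO, with a log2 fold change of -0.00 (SE 0.13, adjusted p = 0.998).

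The receptors and the caspase module of the tissue also stayed within the test's limits. *Tnfrsf10b* had 3.30, 2.69 and 2.54 CPM in WT and 2.21, 2.12 and 2.06 CPM in tissue labelled *Prom1*-KO, without overlap (-0.41, SE 0.18, adjusted p = 0.609). *Cflar* had 47.7, 51.3 and 48.5 CPM in WT and 42.1, 41.8 and 47.2 CPM in tissue labelled *Prom1*-KO, also without overlap (-0.17, SE 0.12, adjusted p = 0.775). These were 2 of the 10 genes, where 14.6% of all genes did not overlap. *Casp8* had 10.8, 12.4 and 9.82 CPM against 10.5, 13.6 and 18.6 CPM (0.37, SE 0.22, adjusted p = 0.722). *Fas* (-0.31, SE 0.23), *Fadd* (0.04, SE 0.19) and *Tnfrsf1a* (-0.01, SE 0.23) had adjusted p values of 0.784, 0.976 and 0.998. The median log2 fold change was -0.06 over the 10 genes and 0.01 over all genes.

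The tissue groups differed in RPE markers at the same time. *Rpe65*, the visual cycle isomerase of the RPE, had 280, 204 and 287 CPM in WT and 1.13, 5.98 and 4.48 CPM in tissue labelled *Prom1*-KO (-6.06, adjusted p = 0.0191). Its adjusted p was 0.0538 to 0.0942 without any of WT replicates 1, 2 and 3 or *Prom1*-KO replicates 2 and 3. The 13 RPE markers summed to between 2084 and 3005 CPM in WT and 597 and 819 CPM in tissue labelled *Prom1*-KO, and 4 of them were called, all lower. Single RPE markers, named after their values were seen, moved unevenly. The ratio of mean CPM, *Prom1*-KO over WT, was 0.027 for *Rgr*, 0.093 for *Lrat* and 0.23 for *Rdh5*, all called lower. *Best1* (0.86), *Otx2* (0.63), *Krt8* (0.97) and *Krt18* (0.85) overlapped between the groups, and *Mitf* (0.57) was lower without overlap. In bulk samples fewer cells of a type and less RNA per cell cannot be told apart. Immune markers summed to between 334 and 415 CPM in WT and 304 and 408 CPM in tissue labelled *Prom1*-KO, endothelial markers to between 142 and 277 and 96.3 and 129 CPM, and photoreceptor markers to between 45.6 and 1221 and 22.8 and 591 CPM, with 0 of these markers called. *Ptprc* (11.3 to 17.7 CPM in WT, 18.3 to 24.0 in tissue labelled *Prom1*-KO), *Csf1r* (24.6 to 26.9 and 15.9 to 19.2) and *Cdh5* (11.4 to 22.8 and 4.94 to 11.4) showed that blood and vessel cells were present. The part of tissue makeup in the values of the 10 genes was not tested.

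On the per-kilobase scale WT RPE/choroid was led by *Cflar* at 25.8 ± 1.05 (SD, n = 3), *Tnfrsf1a* at 17.4 ± 3.65 and *Casp8* at 14.8 ± 1.53, with *Map3k5* at 9.09 ± 1.14 next. *Mlkl* at 1.08 ± 0.318 and *Ripk3* at 0.991 ± 0.241 were lowest and overlapped each other. WT mRPE had *Ripk3* at 7.12 and *Map3k5* at 0.147 on the same scale. The 2 tables were normalised separately, so no test was made between cultured cells and tissue.

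Other genes of the pathway were counted in 8 lists of 105 genes, of which 96 were tested in mRPE. In KO22 against WT 18 were called, 14 higher and 4 lower, a share of 18.8% against 25.2% of all genes. With the adjusted p alone 43 of the 96 were higher and 15 lower, where 26.9% of all genes were higher and 26.1% lower. The median log2 fold change was 0.32 over the tested list genes and -0.03 over all genes. In KO26 against WT 1 was called, a share of 1.04% against 1.92% of all genes. An unadjusted p under 0.05 was found there for 18 of the 96, against 20.1% of all genes. Between KO22 and KO26 13 were called, 9 higher in KO22 and 4 lower, a share of 13.5% against 18.3% of all genes. In RPE/choroid 0 of 102 were called by edgeR or DESeq2, where edgeR called 0.189% of all genes. There 5 had an unadjusted p under 0.05, against 8.30% of all genes.

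**Figure D5:**
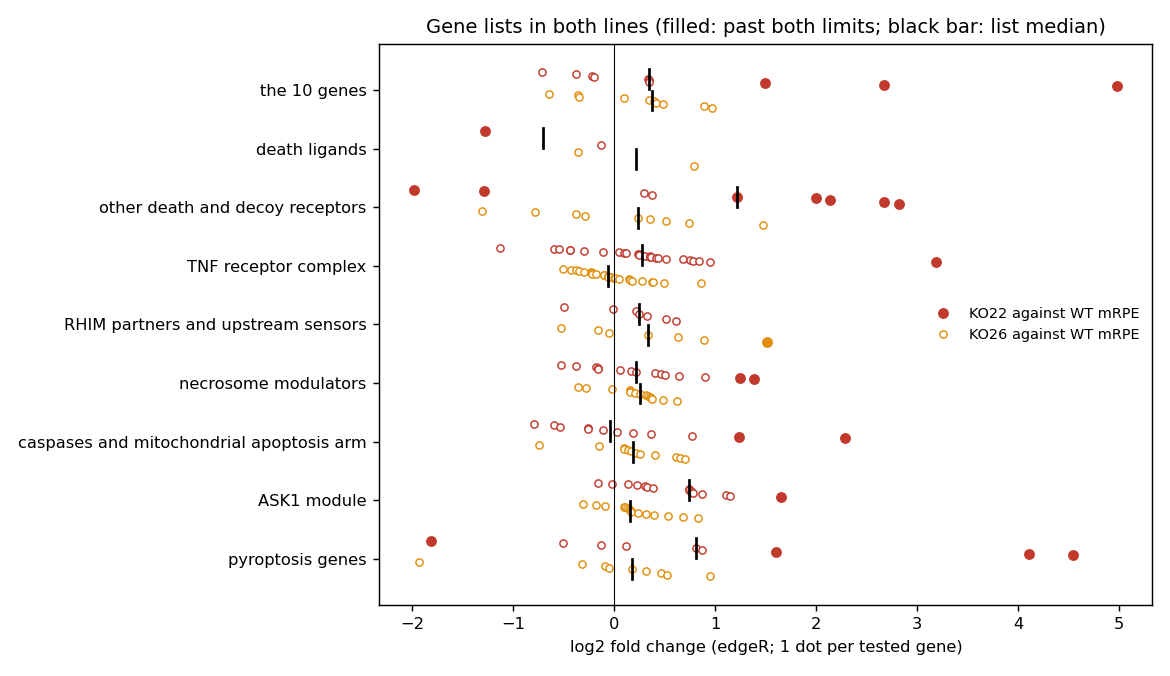
Log2 fold change of every tested gene of the 10 genes and of the 8 pathway lists in KO22 (red) and KO26 (orange) against WT mRPE, with filled points for genes called at both limits and black bars for list medians. In KO22 the pyroptosis list runs from -1.81 to 4.54 and the ASK1 list has a median of 0.74, and *Zbp1* is the single filled point of KO26.

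Death ligands were sparse. *Tnf*, *Fasl*, *Lta* and *Tnfsf15* had no row in the mRPE table used here. *Tnfsf12* (TWEAK) fell by 1.27 on the log2 scale in KO22 and had a log2 fold change of -0.36 in KO26. It was under the fold limit without WT replicate 4 (-1.17) or KO22 replicate 2 (-1.19). *Tnfsf10* (TRAIL), the ligand of *Tnfrsf10b*, gave -0.13 in KO22 (adjusted p = 0.827) and 0.79 in KO26 (adjusted p = 0.367). KO22 differed from WT by 1.45 within project 8995 and by -0.73 within project 9262. Without WT replicate 1 the log2 fold change in KO22 was -0.74 (adjusted p = 0.00595). Without KO22 replicate 1 it was -0.72 (adjusted p = 0.00688). In RPE/choroid *Tnf* had 0.262 to 0.474 CPM in WT and 0.365 to 0.505 in tissue labelled *Prom1*-KO, and *Tnfsf10* had 14.9, 19.3 and 9.49 CPM in WT and 7.51, 12.1 and 4.94 CPM in tissue labelled *Prom1*-KO (-0.82, adjusted p = 0.626). *Fasl* had no row in the tissue table used here.

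Of 9 other death and decoy receptors, 5 rose and 2 fell in KO22, with a list median of 1.22, where 25.2% of all genes were called and 11.4% were called and higher. *Tnfrsf23*, a decoy receptor for TRAIL, had 11.2, 9.80, 8.73 and 8.40 CPM in WT, 30.4, 44.1 and 41.0 CPM in KO22 and 7.01 and 7.63 CPM in KO26, with a log2 fold change of 2.00 in KO22 and -0.38 in KO26. *Tnfrsf12a*, the TWEAK receptor, rose by 2.14 in KO22 and gave 0.52 in KO26. *Tnfrsf21* (DR6) rose by 2.67 in KO22 and gave 1.48 in KO26 (adjusted p = 0.265). *Tnfrsf11b*, osteoprotegerin, a soluble decoy, fell by 1.98 in KO22 and gave -1.31 in KO26 (adjusted p = 0.251), without overlap with WT. In the fit of KO26 and WT alone *Tnfrsf11b* gave -1.56 (adjusted p = 0.0160). *Eda2r* fell by 1.29 in KO22 and gave 0.24 in KO26 (adjusted p = 0.751). Without WT replicate 1 their values in KO22 were -1.195 and -0.75. Without KO22 replicate 1 they were -1.17 and -0.73, and all of these values were under the fold limit. The other 2 that rose, named after their values were seen, were *Tnfrsf22* (1.22) and *Ngfr* (2.82). *Tnfrsf22* gave 1.02 to 1.14 without WT replicate 3 or 4 or KO22 replicate 2 or 3, and *Ngfr* had at most 6 counts in any WT library.

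In the TNF receptor complex 1 of 26 genes was called in KO22, against 25.2% of all genes. By the adjusted p alone 11 were higher and 5 lower, against 26.9% and 26.1% of all genes. *Traf1*, an adaptor of the receptor complex, had 0.795, 1.78, 2.65 and 3.66 CPM in WT, 10.9, 22.8 and 20.3 CPM in KO22 and 1.39 and 2.78 CPM in KO26. It rose by 3.19 in KO22 and gave 0.27 in KO26. *Tradd*, which brings RIPK1 to TNFR1, rose by 0.95 in KO22 (adjusted p = 0.00724) and gave 0.86 in KO26 (adjusted p = 0.119). It exceeded the fold limit without WT replicate 1 (1.22) or KO22 replicate 1 (1.24). In RPE/choroid *Tradd* gave 0.14 (adjusted p = 0.928).

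Of the 7 RHIM partners and upstream sensors none was called in KO22 by edgeR or DESeq2, and 4 had an unadjusted p under 0.05, against 58.4% of all genes. *Zbp1*, a nucleic acid sensor that engages RIPK3 directly, had 26.3, 109, 118 and 126 CPM in WT, 35.2, 172 and 116 CPM in KO22 and 125 and 215 CPM in KO26. All libraries of project 8995 except that of KO26 were low. It gave 0.32 in KO22 (adjusted p = 0.0836) and rose in KO26 with a log2 fold change of 1.52 (adjusted p = 0.0189), the 1 list gene called there. Within the projects KO26 exceeded WT by 2.22 and 0.87. The call was lost without the project term (0.84, adjusted p = 0.498), without KO26 replicate 1 (adjusted p = 0.0982) and without WT replicate 1, 2, 3 or 4 (0.0680, 0.0645, 0.0633 and 0.0568). Between the lines *Zbp1* was lower in KO22 (-1.22, adjusted p = 0.00804), against the direction of *Ripk3*. That call was lost without the project term (-0.66), in the fit of the 2 lines alone (-1.17, adjusted p = 0.0712), without WT replicate 1 (-1.13) and without KO22 replicate 1 (-1.01) or 3 (-1.12) or KO26 replicate 1 (-0.56). In RPE/choroid *Zbp1* had 1.80, 2.18 and 1.72 CPM in WT and 2.58, 6.32 and 2.79 CPM in tissue labelled *Prom1*-KO (1.04, adjusted p = 0.485).

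Of 15 necrosome modulators 2 were called in KO22, a share of 13.3% against 25.2% of all genes. They were the HSP90 chaperones *Hsp90aa1* (1.38 in KO22, 0.25 in KO26) and *Hsp90ab1* (1.24 and 0.62), which stabilise client kinases. *Hsp90ab1* gave 1.10 to 1.18 without WT replicate 2 or 4 or KO22 replicate 2 or 3. In the caspase and mitochondrial arm of 12 genes, 3 were higher and 3 lower in KO22 by the adjusted p alone. Of all genes 26.9% were higher and 26.1% lower by that rule. *Cycs*, cytochrome c, was called in KO22 at 1.24 and gave 0.70 in KO26. Its KO22 libraries overlapped WT, with a difference of -0.16 within project 8995 and 1.75 within project 9262. In KO22 it gave 1.00 to 1.10 without WT replicate 2 or 4 or KO22 replicate 2 or 3.

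Around *Map3k5*, 11 of 16 genes of the ASK1 module rose in KO22 by the adjusted p alone and none fell. Of all genes 53.0% passed that rule, 26.9% higher and 26.1% lower. In the module 1 gene was called, against 25.2% of all genes. That gene was *Txn1*, the thioredoxin that holds ASK1 inactive, with 304, 143, 144 and 145 CPM in WT, 465, 532 and 671 CPM in KO22 and 499 and 152 CPM in KO26. It rose by 1.65 in KO22 and gave 0.53 in KO26. In pyroptosis, the other lytic death programme, 4 of 9 genes were called in KO22, against 25.2% of all genes. *Casp1*, the inflammatory caspase, had 0.994, 1.51, 2.45 and 1.87 CPM in WT, 38.4, 36.8 and 36.3 CPM in KO22 and 1.53 and 2.89 CPM in KO26. It rose by 4.54 in KO22 and gave 0.47 in KO26, and it differed between the lines by 4.10 (adjusted p = 1.2e-05). *Aim2*, a DNA sensor, rose by 4.10 and gave 0.95 in KO26, and *Casp4* rose by 1.60 and gave -0.05. *Il18*, a cytokine matured by caspase-1, fell by 1.81 in KO22 and gave 0.52 in KO26. *Casp1*, like *Ripk3* and *Map3k5*, was thus high in KO22 libraries of both projects.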

How the data were processed

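Raw counts per gene, as deposited by the authors, were used for 9 mRPE and 6 RPE/choroid libraries. The authors trimmed reads with Trim Galore 0.6.7, and STAR was used for alignment to mm39 and for counting per gene. DESeq2 1.42.0 is named in the submitters' processing notes. The labels name an NEB stranded kit and the study's methods another stranded kit, and the strand column used for counting is not given in the sources used here. Genes that share exons with a neighbour on the opposite strand (*Tnfrsf1a*, *Fadd*, *Ripk1*, *Mlkl*, *Map3k5*) may hold its reads. Deposited normalised values were not used.

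Libraries were grouped by their labels. Genes that reached 5 counts in 3 or more libraries entered edgeR 4.0.16 in R 4.3.3 (quasi-likelihood, TMM, Benjamini-Hochberg adjustment over all genes). KO22 was compared with WT over 7 libraries. All 9 mRPE libraries entered the fit for the comparisons of KO26. Library project was a term in these fits, and the fit of 6 tissue libraries had no covariate. Standard errors are the size of the log2 fold change over the root of F. The second rule, adjusted p alone, has no fold limit. The method was tested on simulated data without differences between projects, and the outcome is not given here.

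The members and gene lists were chosen with earlier results of these data known. Named were the 10 members, *Prom1*, *Tnf*, *Fasl*, *Tnfsf10*, *Tradd* and *Zbp1*, up to 3 genes per list and direction with the smallest adjusted p in KO22 against WT (and up to 3 per list called in the tissue), the 3 genes nearest *Ripk3* and *Map3k5*, and the markers *Ptprc*, *Csf1r*, *Cdh5* and *Rpe65*. Values of some single genes that this rule covers are not reported here. Gene positions and sequences come from GRCm39 with GENCODE annotation, and the guide from the labels. Alternatives were DESeq2's size factors and test, other count filters, no project term, one fit over all groups, the 2 compared groups alone, another fold limit and each library left out. Leaving out mitochondrial genes and upper quartile scaling were chosen after seeing the data.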

Additional observations from a re-analysis of the deposited data

Results flagged for a closer look

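In WT mRPE, 1 library lay apart from the other 3 for 2 genes: replicate 1, the only WT library of project 8995, had 23.7 CPM of *Fas* and 20.2 CPM of *Mlkl*. Its gap to the next library, as a share of the range, was above the Dixon limit for 4 libraries, which chance exceeds in about 1 in 20 groups. Leaving this library out kept *Mlkl* called in KO22.

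The effects of the 2 lines differed for 4 genes by the direct test of KO22 against KO26 (edgeR, adjusted p under 0.05). KO22 minus KO26 was 5.63 on the log2 scale for *Map3k5*, 1.79 for *Ripk3*, 0.52 for *Mlkl* and -0.62 for *Tnfrsf1a*. In this comparison the other tested genes on their chromosomes had medians of -0.55, 0.26, 0.59 and -0.52, in the same order. The part of these regional shifts was not tested. *Map3k5* and *Ripk3* kept the call in every alternative, and *Mlkl* and *Tnfrsf1a* did not.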

How the results depend on the processing

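No paired analysis was possible because the replicate numbers were given in accession order and pair no libraries. With no limit on the fold change, 6 of the 10 genes passed in KO22 against WT, 2 in KO26 against WT and 4 in KO22 against KO26, where the main rule called 3, 0 and 2. Every other alternative kept those counts within 1.5 times. Under each alternative *Map3k5* gave 4.81 to 5.09 in KO22 against WT, *Ripk3* 2.50 to 2.85 and *Mlkl* 1.32 to 1.58, all called.

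Values that changed direction did not pass the adjusted p in the main test, and the cause was not tested. In KO26 against WT, *Ripk1* was -0.028 under upper quartile scaling, *Traf1* -0.12 without the project term and *Casp4* 0.027 with the 2 groups alone. In KO22 against KO26, *Cflar* was 0.0073 under DESeq2's size factors and 0.0090 under DESeq2's test, and *Casp8* was 0.014 without the project term. Leaving out each library in turn gave these ranges. In KO22 against WT they were -0.50 to 0.14 for *Fadd* and -0.74 to 0.30 for *Tnfsf10*. In KO26 against WT they were -1.23 to 0.15 for *Fas*, -0.046 to 0.84 for *Tnfrsf10b*, -0.26 to 0.87 for *Fadd*, -0.68 to 2.47 for *Tnfrsf21*, -0.63 to 0.029 for *Tnfrsf22*, -0.25 to 1.14 for *Tnfrsf12a*, -0.047 to 0.93 for *Eda2r*, -0.14 to 1.39 for *Cycs*, -0.10 to 1.14 for *Txn1*, -0.33 to 0.14 for *Casp4* and -0.30 to 1.30 for *Il18*. In KO22 against KO26 they were -0.88 to 0.52 for *Fas*, -0.48 to 0.40 for *Tnfrsf10b*, -1.09 to 0.035 for *Fadd*, -0.28 to 0.21 for *Casp8* and -0.17 to 0.19 for *Cflar*. In RPE/choroid they were -0.18 to 0.13 for *Tnfrsf1a*, -0.095 to 0.18 for *Fadd*, -0.075 to 0.084 for *Ripk1*, -0.26 to 0.14 for *Ripk3*, -0.16 to 0.15 for *Map3k5* and -0.017 to 0.25 for *Tradd*.

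KO26 has 2 libraries, 1 per project, so leaving out either left a lone library, assumed to vary like the other groups. The share of all genes called in KO26 against WT was 0.936% without the project term, 4.12% with the 2 groups alone, 3.03% by DESeq2 and 0.554% to 4.29% with a library left out. In KO22 against KO26 it was 12.2% with the 2 groups alone, and in RPE/choroid 1.10% by DESeq2 and 0.0367% to 0.161% with a library left out. Upper quartile scaling moved the median of all genes in KO22 to -0.21. *Ripk3* and *Mlkl* had at most 94 counts per tissue library, which limits what could be detected there.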
